A study of Mus musculus with 8 samples.

Results

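Fibroblast growth factors (FGFs), their receptors and the genes that FGF signalling switches on to restrain itself were examined in mouse embryos as a set of 36 genes. The set was chosen by gene symbol and holds 22 FGF ligands and FGF homologous factors, 5 receptors, 6 Sprouty and Spred inhibitors, and 3 further targets (*Etv4*, *Etv5* and *Dusp6*). It was read from 51 of the 55681 probes of the array, and the array covers 20660 genes that could be matched to a symbol. All 8 embryos were wild-type and were collected at E8.5, 8.5 days after a copulatory plug was seen, and stage-matched. Of these, 4 were sired by *Eed* wild-type males (WT fathers) and 4 by males heterozygous for the hypomorphic allele *Eedl7Rn5-1989SB* (HET fathers), and all had wild-type mothers. The labels give fathers and mothers as C57bl6/129, while a legend of the study gives the mothers as c57bl/6J. *Eed* encodes a core subunit of Polycomb Repressive Complex 2 (PRC2), which methylates histone H3 at lysine 27. The embryos themselves did not carry the allele, so the comparison asks whether the genotype of the father alone was followed by a difference in the offspring. Each group held 2 females and 2 males. WT-father embryos 1 and 3 and HET-father embryos 2 and 4 were female, and the others male.

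FGFs are mostly secreted proteins that bind receptor tyrosine kinases together with heparan sulphate and signal largely through the Ras and ERK kinases. ERK activity switches on the ETS factors *Etv4* and *Etv5*, the ERK phosphatase *Dusp6* and the Sprouty and Spred inhibitors, of which the phosphatase and the inhibitors limit the signal. In the mid-gestation embryo FGFs pattern the elongating tail bud, the midbrain-hindbrain boundary, the forebrain margin and the pharyngeal region. The arrays were made from whole embryos, so fewer cells of a type and less RNA per cell cannot be told apart.

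Signal was taken as the log2 of the background-subtracted spot intensity, shifted so that the 75th percentile of every array is 0, and each gene was read from its brightest probe. Levels were compared between embryos for 1 probe, and never between probes. Each group was hybridised on a slide of its own, so slide and father cannot be told apart in any value below. Between 29203 and 39530 probes per array were well above background by the scanner software. The highest numbers were in WT-father embryo 1 and HET-father embryo 3, followed by WT-father embryo 4 with 35486. The lowest, 29203, was in HET-father embryo 4. The median local background of that array was 133, against 30 to 51 on the others, and its part in the values below was not tested. The labelled sex matched *Xist*, *Ddx3y* and *Eif2s3y*, each of which was well above background on 4 of the 8 arrays. All 10 genes chosen as markers of the whole embryo at this stage were well above background on every array. So were 14042 of the 20660 genes, and most listed markers of yolk sac, erythroid cells, and trophoblast and decidua. Detection alone thus does not set the tissue apart. The labels do not say which embryos were littermates. WT-father embryos 2, 3 and 4 share the first part of their embryo code, no HET-father embryos do, and the estimated correlation within a code was 0.53. The breeding plan of the study lists fewer sires than embryos for both father genotypes, so some embryos of either group may share a father. A legend of the study for this comparison gives n = 4 for each father genotype, and it is unclear whether males or embryos were counted. SEs, intervals and p-values below treat the 4 embryos of a group as independent, and measure only the spread between these embryos.

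The sequence upstream of the start site was read from RefSeq (build GRCm38.p6) for 26 of the 36 genes, as 34 windows of 250 bases. *Fgf12*, *Fgf13*, *Fgfr3* and *Etv5* have more than 1 window, and each window was counted. *Fgf8*, *Fgfr1* and *Etv4* are among the genes without a window. These are shown because PRC2 is known to occupy CpG-rich promoters of developmental genes, and the members' windows were rich in CpG dinucleotides. The median window of the members held 18 CpG dinucleotides against 6 over all 32851 windows in the table, and 27 of the 34 held more than that median. The 4 examples are printed 5′ to 3′ with each CpG in capitals. *Spry1* (chr3:37639697-37639946, + strand) and *Spry2* (chr14:105896820-105897069, - strand) are related inhibitors whose spread between embryos was small and large, *Fgf4* (chr7:144861136-144861385, + strand) is the gene with the smallest p for sex, and *Dusp6* (chr10:99262981-99263230, + strand) is a direct read-out of ERK activity.
Spry1: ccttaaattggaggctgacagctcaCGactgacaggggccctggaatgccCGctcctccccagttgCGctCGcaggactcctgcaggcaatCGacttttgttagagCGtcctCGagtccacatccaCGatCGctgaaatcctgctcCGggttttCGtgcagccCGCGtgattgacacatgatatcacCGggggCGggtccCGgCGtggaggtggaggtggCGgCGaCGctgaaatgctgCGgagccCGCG
Spry2: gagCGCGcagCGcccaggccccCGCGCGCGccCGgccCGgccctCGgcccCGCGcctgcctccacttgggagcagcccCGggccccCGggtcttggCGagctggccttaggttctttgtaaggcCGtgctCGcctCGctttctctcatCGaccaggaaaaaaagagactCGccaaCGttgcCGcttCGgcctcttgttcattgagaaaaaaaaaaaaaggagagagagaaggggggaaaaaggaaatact
Fgf4: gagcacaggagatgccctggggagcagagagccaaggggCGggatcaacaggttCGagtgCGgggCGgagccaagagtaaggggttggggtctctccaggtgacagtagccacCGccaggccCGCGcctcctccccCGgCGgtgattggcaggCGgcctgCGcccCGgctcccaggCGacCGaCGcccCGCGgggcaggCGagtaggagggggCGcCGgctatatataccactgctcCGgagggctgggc
Dusp6: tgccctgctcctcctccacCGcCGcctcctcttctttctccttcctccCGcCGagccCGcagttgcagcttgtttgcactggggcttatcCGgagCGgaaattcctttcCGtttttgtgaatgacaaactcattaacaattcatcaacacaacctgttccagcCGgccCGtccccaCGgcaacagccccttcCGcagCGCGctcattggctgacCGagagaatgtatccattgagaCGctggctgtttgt
*Spry1* and *Spry2* held 23 CpG dinucleotides each, *Fgf4* 21 and *Dusp6* 16. An ETS-type motif, CCGGAAG on either strand, was found in 1 member window, that of *Fgfrl1*, and in 6.91% of all windows. The motif contains a CpG of its own. These letters are a description of the windows, and the arrays measured no binding or methylation at them.

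All 5 receptors, 5 of 6 inhibitors, and *Etv4*, *Etv5* and *Dusp6* were well above background on all 8 arrays, as were 13 of the 22 ligands and homologous factors, which makes 26 of 36 members. *Fgf16*, a ligand of the *Fgf9* subfamily, and *Fgf21*, a metabolic hormone, were not well above background on any array. The groups did not overlap for *Fgf21* (-7.99 to -7.65 and -7.42 to -6.58), but with no array above background these values have no order. *Fgf2*, *Fgf12*, *Fgf20* and *Fgf22* were well above background on 3, 2, 2 and 1 arrays. These 6 genes fell below the filter (well above background on at least 4 arrays and outside the lowest 20% of probes by mean) and were not tested, which left 30 members. A fold could not be bounded for *Fgf12* or *Fgf22*, which were not well above background on any HET-father array. In the plot of signal by embryo the crosses cluster in the dim ligands, and HET-father embryo 3 stands out in red. It was the highest of the 8 embryos for 8 of the 10 members that were not above background on every array, and for 8 of the 26 that were. Over all genes on the array the shares were 72.7% and 25%, so the members were near the array as a whole.

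**Figure D1:**
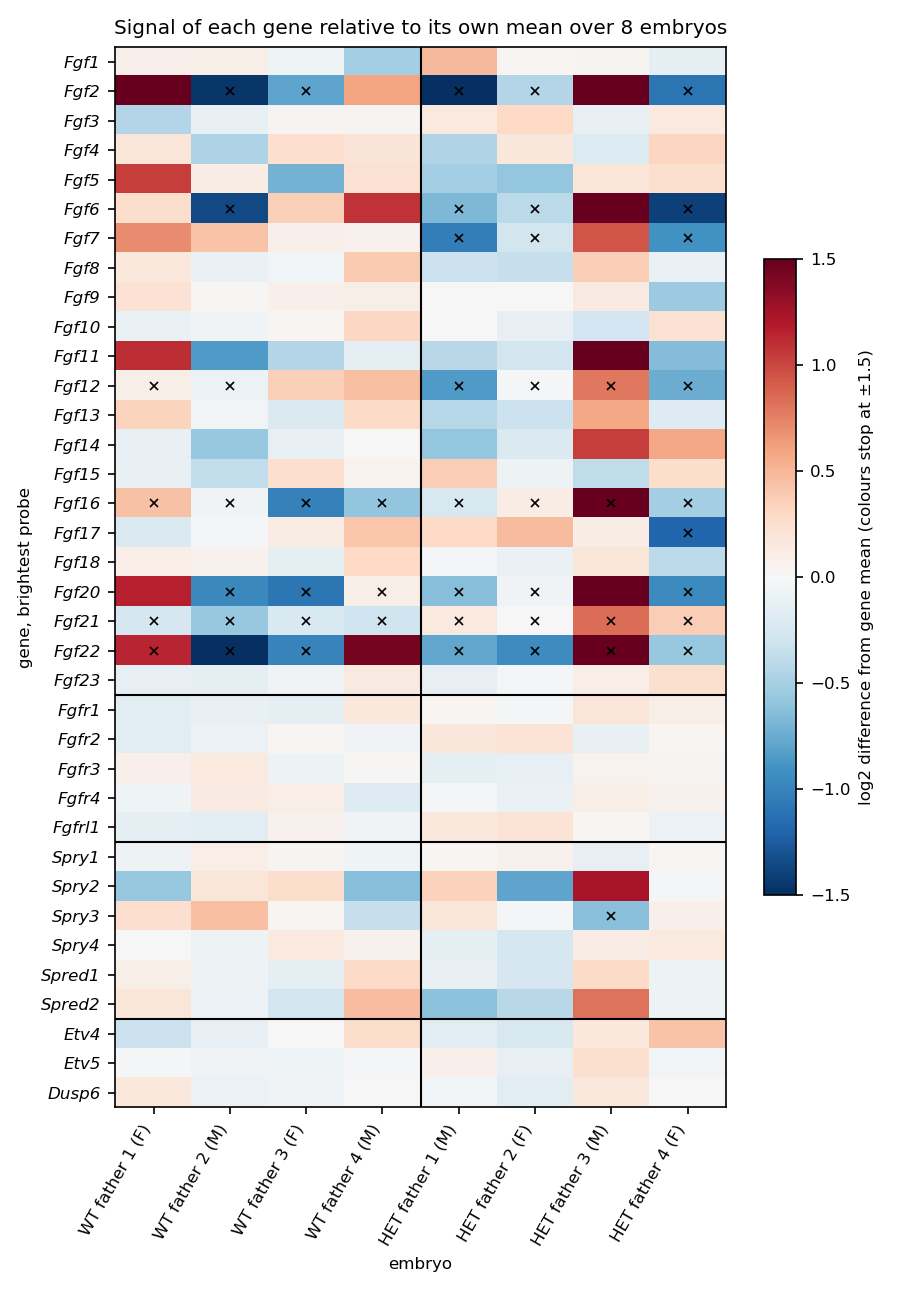
Signal of the 36 genes in each of the 8 embryos, as the log2 difference from the gene's own mean (red higher, blue lower, colours stop at 1.5 either way). Columns are embryos with father group and sex, rows are genes in the order of their roles separated by lines, and a cross marks a value not well above background. Crosses fall mainly on ligands, while the rows of receptors and of *Etv5*, *Dusp6* and *Spry1* are pale.

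No tested member passed a threshold for a difference between the father groups. With the threshold used here, 2-fold or more with limma's p under 0.01 after Benjamini-Hochberg adjustment, 0 members were called, against 0 of 15372 genes tested (0%). At an unadjusted p under 0.05 the count was also 0, against 4.07% of all genes. The 2 groups did not overlap for 0 of the tested members, against 3.44% of all genes. The members lay on both sides of zero, with 14 higher and 16 lower in HET-father embryos and a median log2 difference of -0.04, beside 0.02 for all genes. With arrays aligned on their medians instead, 8 were higher and 22 lower, and the medians were -0.14 for the members and -0.08 for all genes. Differences below are HET father minus WT father on the log2 scale, with limma's SE and a two-sided exact permutation p over the embryos, which cannot be smaller than 0.0286 for 4 against 4. Every member's adjusted limma p was 1.00. For 24 members the 95% interval of the difference stayed inside 2-fold, so a 2-fold change lay outside it. For *Fgf5*, *Fgf6*, *Fgf7*, *Fgf11*, *Fgf14* and *Spry2* the interval held a 2-fold change in at least 1 direction. The absence of a call does not show that the groups were equal.

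**Figure D2:**
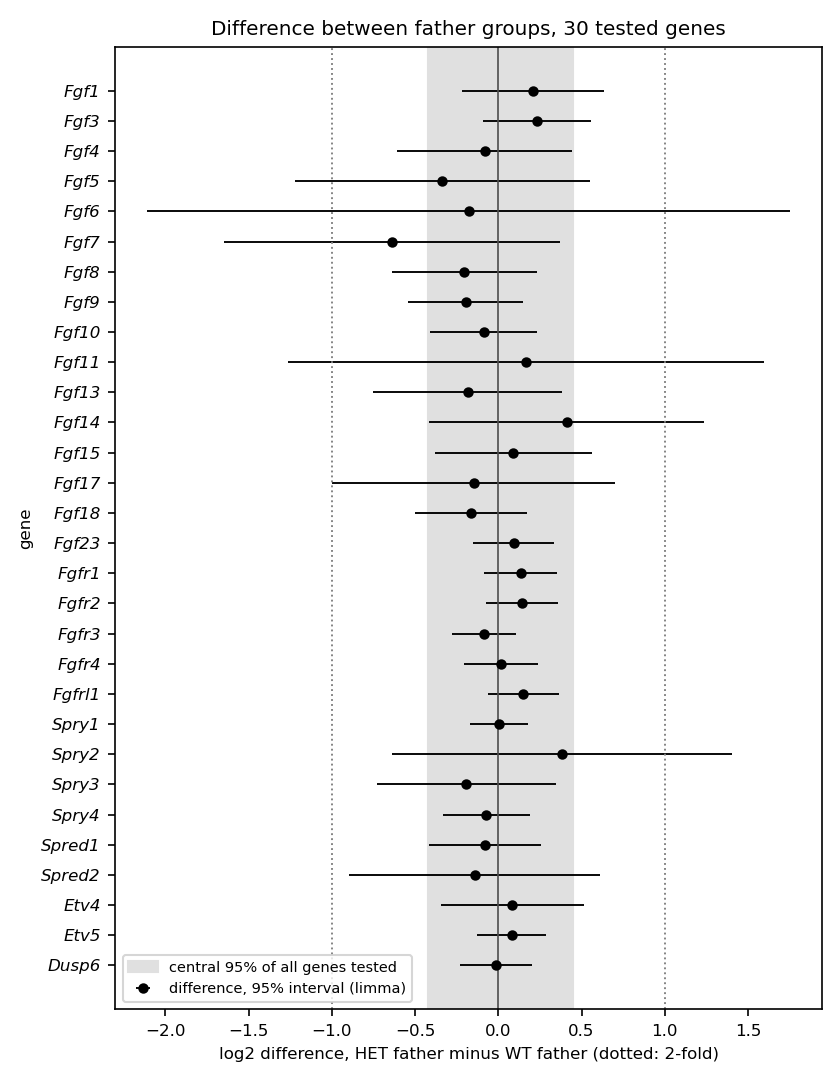
Difference in log2 signal between HET-father and WT-father embryos for the 30 tested genes, with 95% intervals from limma (n = 4 each). The grey band holds the central 95% of all 15372 genes tested, from -0.42 to 0.45, the dotted lines mark 2-fold, and every interval crosses 0.

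Among the ligands of the *Fgf8* subfamily, which signal in the tail bud and the brain boundaries, *Fgf8* and *Fgf18* were well above background throughout. The signal of *Fgf8* was 1.52, 1.26, 1.33 and 1.76 in WT-father embryos 1 to 4 and 1.04, 1.02, 1.73 and 1.27 in HET-father embryos 1 to 4. The groups overlapped, with high values in WT-father embryos 1 and 4 and HET-father embryo 3 and the 2 lowest values in HET-father embryos 1 and 2. The difference was -0.20 (SE 0.187, 95% interval -0.64 to 0.23, two-sided exact permutation p = 0.286). A second *Fgf8* probe gave -0.17, and a further one was well above background on 2 arrays and was not tested. The *Fgf8* difference grew to -0.36 (limma adjusted p = 0.527) without HET-father embryo 3, so its size depended on that embryo. *Fgf18*, which also shapes the developing skeleton later, was 1.63, 1.58, 1.39 and 1.83 in WT-father embryos 1 to 4 and 1.51, 1.43, 1.71 and 1.13 in HET-father embryos 1 to 4. Its lowest value was in HET-father embryo 4 and its highest in WT-father embryo 4. The difference was -0.16 (SE 0.145, exact permutation p = 0.371), and -0.06 without HET-father embryo 4. *Fgf17*, a ligand of the midbrain-hindbrain boundary, was dim, at -3.84, -3.65, -3.51 and -3.21 in WT-father embryos 1 to 4 and -3.32, -3.15, -3.51 and -4.81 in HET-father embryos 1 to 4. The last of these was not above background. The difference was -0.15 (SE 0.364, exact permutation p = 0.914), and 0.22 without that embryo.

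Marker genes of the regions where *Fgf8* is made overlapped between the groups as lists. The 7 presomitic mesoderm and tail bud markers, 6 of them well above background on every array, had a mean deviation from the gene means between -0.08 and 0.24 over WT-father embryos and between -0.23 and 0.14 over HET-father embryos. WT-father embryo 4, which had the highest *Fgf8*, was also highest for this list, at 0.24. *Dll1*, a Notch ligand of the presomitic mesoderm, was the 1 gene of that list at an unadjusted p under 0.05, with a log2 difference of -0.25 (exact permutation p = 0.0857). The 6 midbrain-hindbrain boundary markers ranged from -0.23 to 0.21 and from -0.24 to 0.31, and *En1* was well above background on 3 arrays. The part of these tissues in the *Fgf8* values was not tested. Markers of the anterior neural ridge and the pharyngeal region, with 2 and 3 genes, were each well above background on all arrays, with a median log2 difference of 0.15 and 0.11. The 8 yolk sac endoderm and 6 primitive erythroid markers were well above background on all arrays, with a median difference of 0.00 and 0.19. WT-father embryo 4, the highest for *Fgf8* and *Fgf18*, was lowest for both lists, at -1.02 for the erythroid list (-0.04 to 0.42 in the other embryos) and -0.30 for the yolk sac list (-0.08 to 0.22), and the part of this in its values was not tested. Of 6 trophoblast and decidua markers 4 were, *Tpbpa* was not on any array, and their summed linear signal was 16.9 to 48.7 in WT-father and 16.1 to 44.8 in HET-father embryos, relative to the 75th percentile of the array. *Prl8a2*, a decidual prolactin, had the widest difference of that list, -2.46 (exact permutation p = 0.0286), and its part in the members' values was not tested.

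Over the 16 tested ligands and homologous factors, 6 were higher and 10 lower in HET-father embryos, with a median log2 difference of -0.12. *Fgf3*, which acts in the hindbrain and inner ear, was -2.55, -2.23, -2.08 and -2.07 in WT-father embryos 1 to 4 and -1.96, -1.82, -2.24 and -1.96 in HET-father embryos 1 to 4, and the lowest value belonged to WT-father embryo 1. Its difference was 0.23 (SE 0.138, exact permutation p = 0.171). *Fgf15*, a hindbrain and gut ligand that acts as a hormone in the adult, was 0.08, -0.17, 0.45 and 0.25 in WT-father embryos 1 to 4 and 0.57, 0.12, -0.19 and 0.46 in HET-father embryos 1 to 4, with a difference of 0.09 (SE 0.201, exact permutation p = 0.686). The groups overlapped fully. *Fgf4*, needed for early growth and for the presomitic mesoderm, is taken up with the sexes below. Among the others, *Fgf1*, *Fgf5*, *Fgf9*, *Fgf10* and *Fgf23* had log2 differences of 0.21, -0.34, -0.20, -0.09 and 0.09. That of *Fgf9* was -0.05 without HET-father embryo 4, which had the lowest value, -0.56. A second *Fgf23* probe was not above background on any array, so this bone hormone rests on 1 bright probe. *Fgf7*, a ligand made by mesenchyme and received by epithelium, was well above background in 4 of 4 WT-father embryos and in 1 of 4 HET-father embryos. Its signal was -4.09, -4.36, -4.71 and -4.73 in WT-father embryos 1 to 4 and -5.83, -5.07, -3.84 and -5.70 in HET-father embryos 1 to 4. The 3 dim embryos of the HET-father group lay below every WT-father embryo, and embryo 3 lay above them all. *Fgf7* met the filter through the WT-father embryos. The difference was -0.64 (SE 0.433, exact permutation p = 0.229). Without HET-father embryo 3 it was -1.06, but no HET-father array was then above background, so that value has no measured level on 1 side.

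The FGF homologous factors are intracellular proteins that bind voltage-gated sodium channels and do not act as ligands. Of these, *Fgf11*, *Fgf13* and *Fgf14* were well above background on all 8 arrays, with SDs over the embryos of 0.894, 0.361 and 0.557, and *Fgf12* on 2. *Fgf11* was -2.69, -4.66, -4.24 and -3.95 in WT-father embryos 1 to 4 and -4.22, -4.07, -2.14 and -4.45 in HET-father embryos 1 to 4, with the 2 highest values in the arrays with the most probes above background. It differed by 0.17 (SE 0.611, exact permutation p = 0.686), and by -0.36 without HET-father embryo 3 or -0.09 without WT-father embryo 2. *Fgf13* and *Fgf14* had log2 differences of -0.18 and 0.41 (exact permutation p = 0.543 and 0.4). *Fgf6*, a muscle ligand, was above background on 3 WT-father arrays and 1 HET-father array, and met the filter mainly through the WT-father embryos. It differed by -0.18 with a 95% interval from -2.11 to 1.75, the widest of the tested members.

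Among the receptors, *Fgfr1*, the main mesodermal receptor, was 4.45, 4.50, 4.46 and 4.77 in WT-father embryos 1 to 4 and 4.64, 4.59, 4.79 and 4.70 in HET-father embryos 1 to 4. The groups overlapped and the difference was 0.13 (SE 0.0935, exact permutation p = 0.143). Its other probes did not follow. Another *Fgfr1* probe was lower in HET-father embryos, with a log2 difference of -0.20 (exact permutation p = 0.0286, the smallest this design allows), with groups that did not overlap, and the remaining one differed by 0.07. *Fgfr2*, an epithelial and mesenchymal receptor, was -0.76, -0.68, -0.56 and -0.64 in WT-father embryos 1 to 4 and -0.42, -0.39, -0.71 and -0.56 in HET-father embryos 1 to 4, and *Fgfr3*, which restrains bone growth, was 2.89, 2.96, 2.73 and 2.82 in WT-father embryos 1 to 4 and 2.66, 2.69, 2.86 and 2.85 in HET-father embryos 1 to 4. Both overlapped between the groups, with differences of 0.14 (SE 0.0921, exact permutation p = 0.2) and -0.08 (SE 0.0825, exact permutation p = 0.257). *Fgfr4* and *Fgfrl1*, a receptor without a kinase domain, differed by 0.01 and 0.15. Second probes of *Fgfr2*, *Fgfr3* and *Fgfr4*, also above background on all arrays, differed by 0.10, -0.195 and -0.10. Over the brightest probes of the 5 receptors the median was 0.13, beside 0.02 over all genes, and none of these was past a threshold. The other probes of *Fgfr1*, *Fgfr3* and *Fgfr4* show that this direction depended on the probe.

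The feedback targets of FGF signalling did not differ past a threshold between the groups either. *Dusp6*, the ERK phosphatase, was 4.22, 3.96, 4.01 and 4.07 in WT-father embryos 1 to 4 and 4.01, 3.90, 4.21 and 4.07 in HET-father embryos 1 to 4, giving 4.06 ± 0.111 and 4.05 ± 0.129 (SD, n = 4 each). *Etv5*, an ETS factor, was 4.92, 4.90, 4.89 and 4.91 in WT-father embryos 1 to 4 and 5.02, 4.83, 5.19 and 4.91 in HET-father embryos 1 to 4, with the 4 WT-father embryos close together (SD 0.016) and HET-father embryo 3 highest. Their differences were -0.01 (SE 0.0931, exact permutation p = 0.886) and 0.08 (SE 0.0886, exact permutation p = 0.371). *Etv4* was 3.15, 3.34, 3.46 and 3.73 in WT-father embryos 1 to 4 and 3.30, 3.22, 3.62 and 3.89 in HET-father embryos 1 to 4, the lowest in WT-father embryo 1 and the highest in HET-father embryo 4. It differed by 0.08 (SE 0.184, exact permutation p = 0.686). A second *Etv4* probe gave -0.18, of the opposite sign and also not past a threshold.

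Among the Sprouty inhibitors, *Spry1* was 2.48, 2.65, 2.60 and 2.50 in WT-father embryos 1 to 4 and 2.58, 2.62, 2.44 and 2.59 in HET-father embryos 1 to 4, a range of 1.16-fold over the 8 embryos. *Spry2* was -1.79, -1.03, -0.95 and -1.86 in WT-father embryos 1 to 4 and -0.87, -2.0, 0.02 and -1.24 in HET-father embryos 1 to 4, a range of 4.06-fold. The lowest embryo for *Spry2* (2) and the highest (3) were both HET-father embryos, and the groups overlapped fully. Their father differences were 0.00 (SE 0.0747, exact permutation p = 1) and 0.38 (SE 0.438, exact permutation p = 0.571), the latter 0.03 without HET-father embryo 3. *Spry4*, an inhibitor also read as a target of ERK, was -1.53, -1.61, -1.39 and -1.47 in WT-father embryos 1 to 4 and -1.67, -1.80, -1.42 and -1.38 in HET-father embryos 1 to 4 and differed by -0.07 (SE 0.113, exact permutation p = 0.543). *Spred1* and *Spred2*, membrane inhibitors related to Sprouty, differed by -0.08 and -0.14. *Spry3* was above background on 7 arrays, the exception being HET-father embryo 3.

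**Figure D3:**
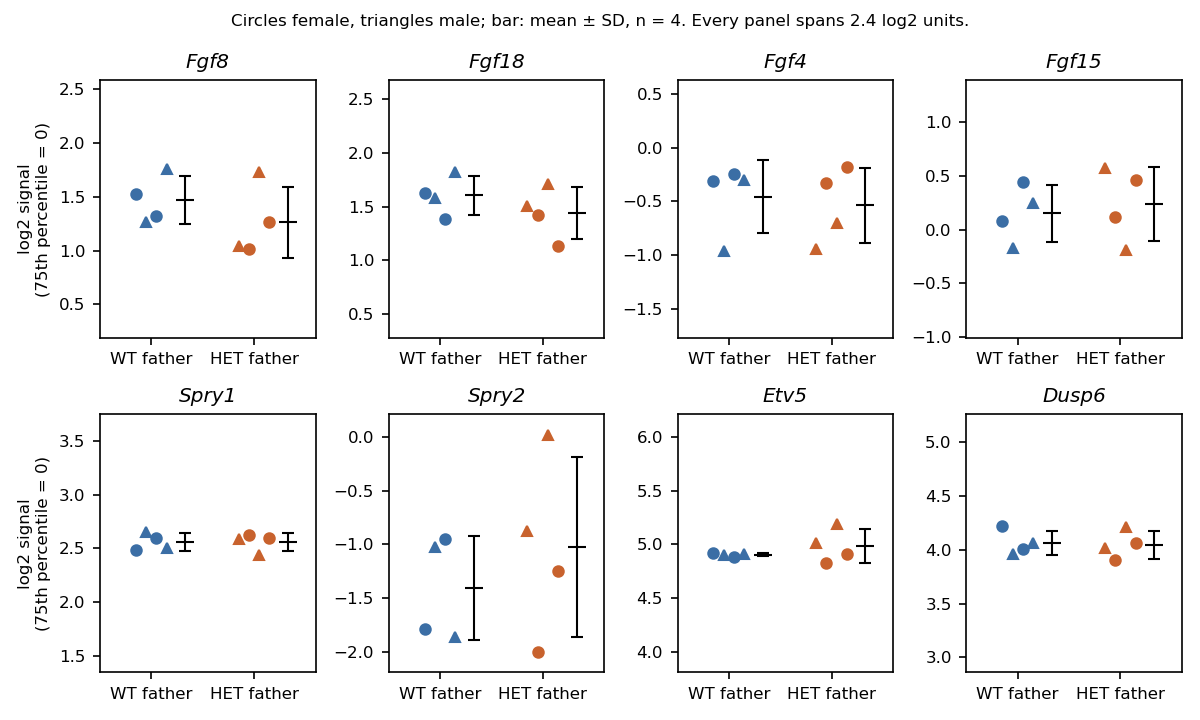
Log2 signal of 8 members by embryo and father group, with the 75th percentile of the array at 0 (circles female, triangles male, bar the mean with its SD, n = 4 each). Panels share a span of 2.4 log2 units, in which *Spry1*, *Etv5* and *Dusp6* are compact and *Spry2* is spread from -2.0 to 0.02.

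Spread between embryos was compared with that of the 14042 genes well above background on all arrays, as a description. The median SD over the 8 embryos was 0.22 for the 26 members and 0.151 for all such genes, and 16 of the 26 were above the latter. *Fgf11*, *Spry2*, *Fgf5*, *Fgf14* and *Spred2* lay above the 90th percentile of 0.38, with SDs of 0.894, 0.666, 0.578, 0.557 and 0.472. The brightest probes of all 5 receptors lay below the median of all genes, with SDs from 0.102 to 0.135. Another probe of *Fgfr1*, *Fgfr2*, *Fgfr3* and *Fgfr4*, also above background on all arrays, lay above it (SD 0.217, 0.168, 0.217 and 0.17). The remaining *Fgfr1* probe, also above background on all arrays, lay below it at 0.142. *Spry1*, at 0.0766, was more variable than 11.5% of these genes and *Spry2* than 97.8%. The 3 arrays with most probes above background were the 3 highest for *Fgf8*, *Fgf9*, *Fgf11*, *Fgf13*, *Fgf18*, *Spred1* and *Spred2*, which is 7 of 26 members, against 9.39% of all such genes. They were the 3 lowest for *Spry1*, against 7.66%. The part of array brightness in the spread was not tested.

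**Figure D4:**
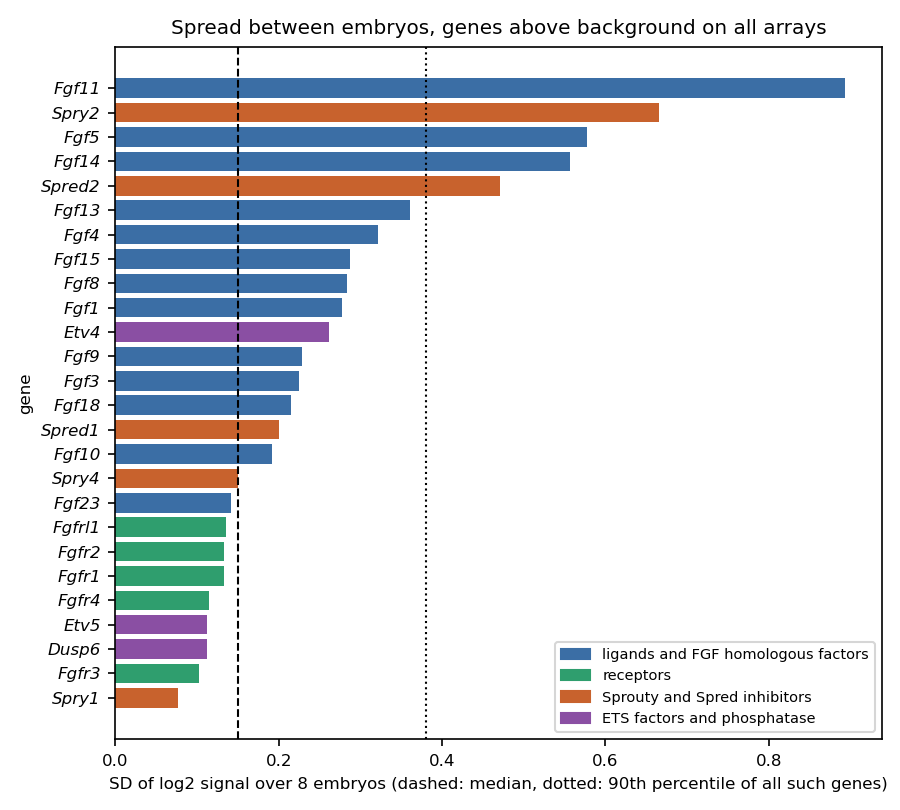
Standard deviation of the log2 signal over 8 embryos for the 26 members well above background on all arrays, coloured by role. The dashed line at 0.151 is the median and the dotted line at 0.38 the 90th percentile of the 14042 genes detected on all arrays. *Fgf11*, *Spry2*, *Fgf5*, *Fgf14* and *Spred2* have the highest values, and *Spry1* the lowest.

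The level of *Fgf8* was then set against 6 feedback targets across the 8 embryos, with a two-sided exact permutation test over all pairings and adjustment over the 6 relations. None passed an adjusted p of 0.05. *Spry1* gave r = -0.83 (exact permutation p = 0.0141, adjusted 0.0844), rho = -0.71 (exact p = 0.0576, adjusted 0.208). *Dusp6* gave r = 0.74 (exact permutation p = 0.0361, adjusted 0.108), rho = 0.69 (exact p = 0.0694, adjusted 0.208). *Spry4* gave r = 0.65 (exact permutation p = 0.0832, adjusted 0.167), rho = 0.60 (exact p = 0.132, adjusted 0.265). *Etv4*, *Etv5* and *Spry2* had r of 0.43, 0.45 and 0.18, with exact permutation p of 0.282, 0.265 and 0.665 (n = 8). WT-father embryo 4 and HET-father embryo 3 were farthest from the median of *Fgf8*. Without both, r was -0.63 for *Spry1*, 0.81 for *Dusp6* and 0.67 for *Spry4*, and near 0 for *Etv4* and *Etv5*. For *Etv5*, r was -0.01 without HET-father embryo 3 alone and 0.63 without WT-father embryo 4 alone. Both embryos were on the 3 arrays with most probes above background, and the sign for *Spry1* turned to 0.80 when arrays were aligned on their medians. With both genes centred on their father group, and so within slides, r was -0.89 for *Spry1* (exact permutation p = 0.0174, adjusted 0.104), 0.78 for *Dusp6* (exact p = 0.0556, adjusted 0.167), 0.71 for *Etv5*, 0.62 for *Spry4*, 0.55 for *Etv4* and 0.34 for *Spry2*, again with none past an adjusted p of 0.05. This form was chosen after seeing the data.

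**Figure D5:**
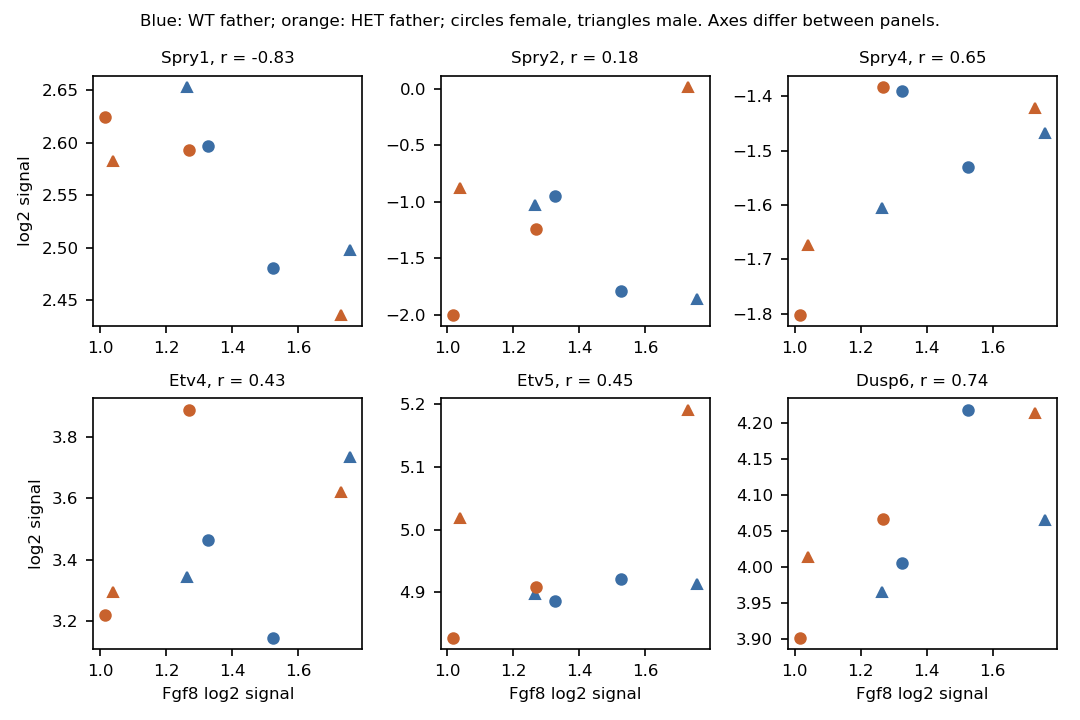
Log2 signal of 6 feedback targets against that of *Fgf8* in 8 embryos (blue WT father, orange HET father, circles female, triangles male, r in each title). The *Spry1* panel runs downward and the *Dusp6* and *Spry4* panels upward, none past an adjusted p of 0.05. Axes differ between panels.

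Sex was compared with father as a covariate, 4 females against 4 males. No member was called (5 of 15372 genes, 0.0325%), and 1 of 30 members had an unadjusted p under 0.05, against 2.99% of all genes. That gene was *Fgf4*. Its signal was -0.31, -0.96, -0.24 and -0.30 in WT-father embryos 1 to 4 and -0.94, -0.33, -0.70 and -0.18 in HET-father embryos 1 to 4. The 4 females lay between -0.33 and -0.18, and the males were lower except WT-father embryo 4, which at -0.30 overlapped them. The means were -0.27 ± 0.0703 in females and -0.73 ± 0.308 in males (SD, n = 4 each), a difference of 0.46 (SE 0.16, 95% interval 0.08 to 0.85, limma unadjusted p = 0.0257, adjusted p = 0.999, exact permutation p = 0.0857). It did not pass adjustment over all probes. Leaving out single embryos moved it between 0.35 and 0.62, and its p rose above 0.05 without WT-father embryo 2 or 3 or HET-father embryo 1, 2 or 4. The sexes did not overlap for 0 of the 30 members, against 3.04% of all genes. *Fgf18* had a female minus male difference of -0.26 (exact permutation p = 0.0857).

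The father difference was also compared between females and males. With 2 embryos in each cell, 0 members were called (0% of all genes) and 0 had an unadjusted p under 0.05, against 2.02% of all genes. The difference in females minus that in males was, for *Spry2*, -1.27 (SE 0.726, limma adjusted p = 1.0), and for *Fgf11*, -1.92 (SE 1.17, limma adjusted p = 1.0).

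Of 59 further genes, co-receptors, adaptors and kinases, other inhibitors, other targets and heparan sulphate genes, 58 were on the array, 56 were well above background on all arrays and 57 were tested. None was called between the father groups, and 2 were lower and 0 higher at an unadjusted p under 0.05 (3.51%, beside 4.07% of all genes), with a median difference of 0.00. By sex, 3 of the 57 were lower in females at that p and 0 higher (5.26%, beside 2.99%). No gene of the list reached an unadjusted p under 0.01 in either comparison. *Kl*, the co-receptor Klotho, was not above background on any array.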

How the data were processed

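RNA of 8 embryos was labelled with Cy3 and hybridised to one-colour Agilent 8x60K arrays, 1 per embryo. The authors read the spots with Agilent Feature Extraction (version 11.0.1.1 in the submitters' processing notes), which subtracts background and detrends each array in space. The deposited intensity was not adjusted from array to array. The submitters' value file holds the same intensity rounded, and 0 of its columns were left unused. Probe positions are on mm9. A percentile shift is named in the methods, without the percentile.

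Control and outlier spots were removed, spots of a probe averaged, and the log2 intensity shifted per array so that its 75th percentile is 0. A RefSeq list (GRCm38.p6, names only) gave symbols to 27235 of the 28685 probes that carry such an accession. A gene was read from its brightest probe. The test was run on 33093 probes and 15372 genes that were well above background on at least 4 arrays and whose mean was not among the lowest 20%. Father groups were compared with limma 3.58.1 in R 4.3.3 (and data.table, version 1.17.8), sex with father as a covariate, and father by sex as an interaction. Calls needed 2-fold or more and p under 0.01 after Benjamini-Hochberg adjustment over all probes. The model was tested on simulated data. Correlations and single differences used exact permutation of embryos. Summaries used Python 3.11.15, numpy 2.4.6, scipy 1.17.1, pandas 2.3.3 and matplotlib 3.10.9. Alternatives covered scaling, background correction, filters, covariates, blocks, moderation, array weights, probe choice and single embryos left out. Genes were named by rule: 15 well-known members, members at an unadjusted p under 0.05, members whose groups do not overlap, and members above background on some arrays. Other members were named in short. The members and lists were chosen with earlier results of these data known. The number of arrays, 8, limits the precision.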

Additional observations from a re-analysis of the deposited data

Results flagged for a closer look

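In 3 of 60 groups of 4 embryos, 1 value stood apart from the other 3 (its gap over the range of the group exceeded Dixon's 95% critical value), and chance flags about 1 in 20, or 3 of 60. *Fgf4* in WT-father embryos had a gap of 0.906, with embryo 2, a male, lowest at -0.96. *Fgf11* in HET-father embryos had a gap of 0.837, with embryo 3 highest at -2.14, the embryo with the second most probes above background. *Fgfr1* in WT-father embryos had a gap of 0.857, with embryo 4 highest at 4.77.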

How the results depend on the processing

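Under all alternatives run that kept an adjusted p, the number of members called for father, sex or their interaction stayed at 0. No further pathway gene was called for father. Counts at an unadjusted p under 0.05 moved. For father, 0 became 1 with arrays aligned on their medians (*Fgf7*), quantile normalisation (*Fgf7*), normexp (*Fgf3*), no filter (*Fgf21*) or without both WT-father embryo 1 and HET-father embryo 3 (*Fgf7*), and 3 with array weights (*Fgf3*, *Fgf7*, *Fgfr2*). Leaving out single embryos gave 0 to 4, with 1 without WT-father embryo 4 (*Fgfr1*) and 4 without HET-father embryo 3 (*Fgf7*, *Fgf8* and *Fgf13* lower, *Fgfr2* higher). *Fgf7* was well above background on 4 WT-father arrays and 1 HET-father array and met the filter through the WT-father embryos, which limits all of these fits. In either fit that left out HET-father embryo 3, it had no HET-father array above background. *Fgf21* was not above background on any array, so its values have no order. For sex, 1 (*Fgf4*) became 0 with medians aligned or without both embryos, and 2 with normexp or trended robust moderation (*Fgf4* and *Fgf18*). Without single embryos it was 0 to 2, and the gene without WT-father embryo 2 was *Fgf18*. For the interaction, single embryos left out gave 0 to 2. The number of *Fgf8* relations with an adjusted p under 0.05 rose from 0 to 5 of 6 with medians aligned, where the exception was *Spry2* (r = 0.21), and was 0 under quantile normalisation, normexp, within father groups, and with 1 or 2 embryos left out. Aligning medians moved the median sex difference of all genes from -0.03 to 0.13 and the father difference from 0.02 to -0.08. The split of the 30 members for father moved from 14 higher and 16 lower to 8 and 22. The interaction moved most, from a median of -0.03 to 0.77 over all genes and from -0.12 to 0.68 over the members. Members above and below 0 for the interaction went from 10 and 20 to 27 and 3, and 1 of all genes was then called. Of 656 father differences of members under alternatives, 653 moved by less than the SD between replicates, and 51, in 17 genes, changed sign. For sex, 10 of 596 moved by more than the SD and 78, in 24 genes, changed sign. The replicate numbers do not pair the embryos (correlations of same-numbered deviations -0.55, -0.05, -0.59 and -0.15), and with the replicate block 0 members were called for father and sex, while genes at an unadjusted p under 0.05 for father went from 625 to 326. With the first part of the embryo code as a random block that count was 262, with 0 members called for father. The cause of these changes was not tested. Signal near background limits the 10 members not above it on every array.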
